A study of Saccharomyces cerevisiae with 24 samples.

Results

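The 50 genes described here gave a higher signal in the respiratory strain V5.TM6*P than in its parent V5. In the deposited values, their V5 signal differed little between high and low residual glucose. The genes were chosen by measured values. In the deposited table of processed intensities, each of 7477 spots was put on a log2 scale with a floor of 0.1, set against the median of its array and averaged over the 2 arrays of each RNA sample. A spot was taken when its mean over the 12 RNA samples was at least 0 (the array median), when its V5.TM6*P mean exceeded its V5 mean by at least 1 (the gap), and when its V5 mean at the 2 lowest glucose concentrations differed from that at the 2 highest by at most 0.4 (the V5 rise). This gave 55 spots, which belong to 50 of the 6330 genes on the array. A further 21 spots were left out beforehand, of which 3 met the other conditions. Of the 50 genes, 49 could be named and 1 could not. Because the strain difference, the V5 rise and the level chose the genes, they are given below as descriptions with no test.

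V5 is a wine strain of Saccharomyces cerevisiae (MATa ura3 gal). V5.TM6*P was made from a V5 derivative that lacks the hexose transporter genes HXT1 to HXT7, and carries an integrated gene for a chimeric glucose carrier called TM6*, in which the first part of Hxt1 is joined to the last part of Hxt7. Integration of URA3 had made both strains prototrophic, and each is 1 construct. Both were grown in aerated bioreactors on defined minimal medium at 30 °C and pH 5, starting at 50 g/L glucose, and were sampled while glucose was still present. Points 1 and 2 of V5.TM6*P were taken at 36.5 and 34.8 g/L residual glucose, points 3 and 4 at 26.3 and 25.1 g/L, and point 5 at 13.5 g/L and point 6 at 5.6 g/L. In V5 the same points stood at 38.4 and 35.0 g/L, at 25.5 and 24.4 g/L, and at 10.5 and 7.4 g/L, with 1 RNA sample per point and 2 arrays per RNA sample. The study describes 2 independent fermentations per strain, and the labels do not say which samples came from which. The 6 samples of a strain are therefore not 6 independent cultures, and p-values measure the spread between these samples only.

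Yeast that grows on plentiful glucose ferments it to ethanol and keeps the genes of respiration, of the TCA and glyoxylate cycles and of other carbon sources repressed. When glucose runs short, repression through Mig1 is relieved, and activators including Hap4, the regulatory subunit of the CCAAT-binding Hap complex, and Cat8 raise the transcription of many of these genes. The TCA cycle then feeds electrons into the respiratory chain of the mitochondrial inner membrane, and the ATP synthase uses the resulting proton gradient.

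Short oligonucleotides that the study listed for these factors are shown for the genes on which the results below turn, and other entries of the listing are not. They lie upstream of the start codon or, for the Hap complex, also early in the coding region. For Cat8 the listing holds matches from a search (OM14 and COX4) and sites from earlier work (MDH2 and MLS1). The listing gave a Hap oligonucleotide for 33 of the 50 genes, and in 28 of them at least 1 held CCAAT or its reverse complement ATTGG. The exact hexamer CCAATC was listed for 9 genes. Capitals mark CCAAT or ATTGG for the Hap complex, the outer bases for Cat8 and the run of 4 C for Mig1, and sequences are written as listed.
ACO1, ATP1, ATP19, COX12, COX4, MBA1, MIC27, NDI1 and OGG1 (Hap): CCAATc
MDH2 and MLS1 (Hap): CCAATa
SNZ2 and SNZ3 (Hap): tttATTGG
YPR148C (Hap): ttgATTGG
OM14 (Cat8): GCCGctggCCCG
COX4 (Cat8): GCCGctgcaCCG
MDH2 (Cat8): CCattcggCCG
MLS1 (Cat8): CCattgggCCG
MLS1 (Cat8, second site): CCattgagCCG
UGA2 (Mig1): CCCCacaa
BDH1 (Mig1): CCCCgtaa
A listed oligonucleotide is given as letters, and no binding was measured here. The share of other yeast promoters that hold the same letters was not computed here.

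Values below are log2 intensities from the scanner files relative to the array median, with the 2 arrays of an RNA sample averaged. A level of 1 is therefore a signal 2-fold that of the median probe. Signals of different probes also depend on the probe, and are not read as relative amounts of RNA. The median net intensity per array ran from 11.4 to 22.9 and the median background from 12.1 to 31.5. The spots of the 50 genes were brighter, with a median net intensity of 82.0 in V5.TM6*P and 34.1 in V5, which is 4.23 and 1.89 times the local background. Repeat arrays of 1 RNA sample differed by a median of 0.31 for these genes, and by 0.94 at the 90th percentile. Per the file headers, both arrays of V5.TM6*P point 1 and 1 array of point 2 carry another array code than the remaining 21, while the sample titles give 1 code for all 24. Array code and point cannot be told apart at point 1. Without those 3 arrays the median strain difference of the 50 genes was 1.14 and the lowest was 0.62.

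Among the deleted transporter genes, HXT2 gave levels between -2.22 and -0.65 in V5.TM6*P and between -0.47 and 0.71 in V5, with no overlap. The HXT3 probe gave 5.32 to 5.85 in V5.TM6*P and 6.03 to 6.53 in V5, also without overlap. The HXT7 probe, whose gene contributes to TM6*, gave 7.85 to 8.21 in V5.TM6*P and 6.35 to 8.13 in V5. HXT genes are close in sequence and these PCR-product probes can cross-hybridize, so a high signal from a deleted gene's probe does not test the deletion.

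All 50 genes had a higher mean in V5.TM6*P, as the rule requires. The folds ran from 1.61 for HSP10 to 4.64 for the unnamed gene, with a median of 2.23, and 36 of the 50 were at least 2-fold. With normexp background correction, which adds an offset of 50 before the log and so shrinks the folds of dim spots, and quantile normalization, the log2 differences ran from 0.26 to 1.28 with a median of 0.61. All 50 were still higher in V5.TM6*P, and 5 (SNZ2, YHB1, NDI1, ACO1 and ATP1) were at least 2-fold. In 24 the fold was lower by over 1.5 times. Among them were the unnamed gene (log2 0.73 against 2.21), MDH2 (0.48 against 1.89), OM14 (0.62 against 1.86), MLS1 (0.60 against 1.70), DAL2 (0.61 against 1.63) and COX4 (0.33 against 1.14). In the limma fit over all 6330 probes the strain difference of each of the 50 passed the adjusted p threshold of 0.05, where 6.79% of all probes were called higher in V5.TM6*P. The lowest V5.TM6*P sample lay above the highest V5 sample in 38 of the 50, against 4.83% of all probes. Since this contrast chose the genes, nothing is read from either count. The overlapping genes were IDH1, ALD6, GLC3, TDA6, YPR148C, COR1, MRPL16, PIR3, MRPL51, MIC27, MRP2 and HSP10.

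**Figure D1:**
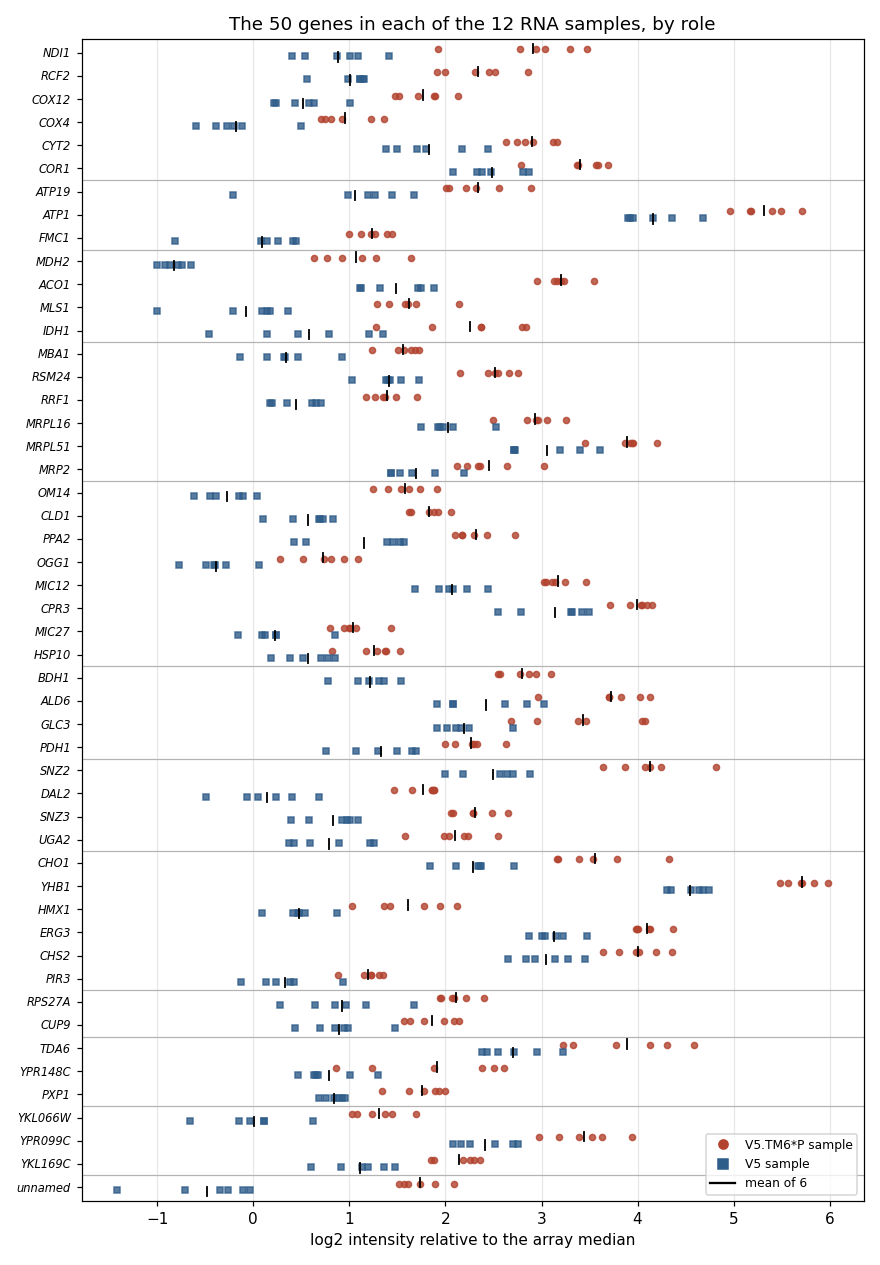
Levels of the 50 genes in every RNA sample, grouped by role (x axis, log2 intensity relative to the array median). Circles are the 6 V5.TM6*P samples, squares are the 6 V5 samples and the vertical bars are their means; in 38 genes the circles and squares do not overlap.

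The 6 genes of the respiratory chain and its assembly had a median fold of 2.29. NDI1, the internal NADH dehydrogenase that passes electrons from matrix NADH to ubiquinone, was lowest at 1.92, had a median of 2.99 and was highest at 3.47 in V5.TM6*P, against 0.40, 0.94 and 1.41 in V5. Its lowest V5.TM6*P level, at point 3, was still above the highest V5 sample, and the difference was 4.06-fold (log2 2.02 ± 0.26, SE, n = 6 per strain). RCF2, a factor of cytochrome oxidase supercomplexes, was 2.52-fold higher. For the cytochrome oxidase subunits COX12 and COX4 the folds were 2.38 and 2.20. COX4 gave 0.70, 0.86 and 1.36 (lowest, median, highest) in V5.TM6*P and -0.60, -0.24 and 0.50 in V5, so its V5 samples straddled the array median and its V5.TM6*P samples lay above it. CYT2, which attaches heme to cytochrome c1, was 2.10-fold higher. COR1, a core subunit of the cytochrome bc1 complex, had the smallest fold of the 6 at 1.88, and its V5.TM6*P point 1 (2.79) lay below the highest V5 sample (2.86).

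Other subunits of the same complexes met the gap and level conditions, but in the deposited table rose in V5 by over 0.4. They were not chosen, and 67 genes outside the 50 were of this kind, called rising genes below. Complex II had no gene among the 50, and all 4 of its subunit genes, SDH1 to SDH4, were rising genes. In complex III COR1 stood beside 4 rising genes (RIP1, CYT1, QCR10 and QCR7), and in complex IV COX12 and COX4 stood beside COX6 and COX5A. On the scanner values this split was less clear. There the V5 change from points 1 and 2 to points 5 and 6 was 0.60 for COR1. For RIP1, CYT1, QCR10 and QCR7 it was 0.53, 1.06, 0.99 and 0.40. Among SDH1 to SDH4 it ran from 0.21 for SDH1 to 1.30 for SDH4. For COX12 and COX4 it was 0.26 and 0.48, against 0.89 and 0.51 for COX6 and COX5A. All 7 named complex III probes were called higher, with a median log2 difference of 1.03, and of the 8 of complex IV 7 were, with a median of 0.91. Over all 6330 probes the median log2 difference was -0.05, and 12.2% were called in either direction. Such list counts rest on probes that could be named, which are mostly those the study had called different between the strains, so they are not independent evidence of direction.

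In the ATP synthase, ATP1, the alpha subunit of the catalytic head, gave 4.96, 5.29 and 5.71 (lowest, median, highest) in V5.TM6*P and 3.90, 4.06 and 4.68 in V5. Both of its spots met the rule, the sample means of the strains did not overlap, and the fold was 2.22 (log2 1.15 ± 0.18, SE). Repeat arrays of ATP1 in V5 disagreed widely late in the course, with 2.92 and 5.40 at point 5 and 3.01 and 4.84 at point 6. The higher array at V5 point 5 lay above the lowest V5.TM6*P sample (4.96), so the absence of overlap holds for averaged arrays only. ATP19, a small membrane subunit, was 2.43-fold higher, and FMC1, which assists assembly of the head at high temperature, was 2.22-fold higher. Neither gene's samples overlapped. In V5, ATP19 at 25.5 g/L (-0.21) and FMC1 at 38.4 g/L (-0.82) each stood well below the other 5 samples. Of 14 named ATP synthase probes, with a median log2 difference of 1.12, 13 were called higher, 2 were among the 50 and 8 were rising genes (TIM11, ATP20, ATP16, ATP4, INH1, ATP3, ATP7 and ATP15).

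The 4 genes of the TCA and glyoxylate cycles had the highest median fold of the role groups with more than 1 gene, 3.28. With normexp and quantile normalization their folds were 2.08 for ACO1, 1.69 for IDH1, 1.51 for MLS1 and 1.39 for MDH2. The ranking of the groups was not repeated there. MDH2, the cytosolic malate dehydrogenase, gave 0.64, 1.03 and 1.64 in V5.TM6*P and -1.01, -0.83 and -0.65 in V5, so that the probe lay above the array median in each V5.TM6*P sample and below it in each V5 sample. MLS1, the malate synthase of the glyoxylate cycle, gave 1.29, 1.60 and 2.15 in V5.TM6*P and -1.01, 0.11 and 0.36 in V5. ACO1, the aconitase shared by both cycles, gave 2.95, 3.18 and 3.54 in V5.TM6*P and 1.11, 1.51 and 1.88 in V5. None of these 3 overlapped, and the folds were 3.71, 3.25 and 3.30. IDH1, a subunit of the NAD-dependent isocitrate dehydrogenase, was 3.19-fold higher with a wider spread (SD 0.59 in V5.TM6*P and 0.68 in V5). Its V5.TM6*P point 3 (1.28) fell below the highest V5 sample (1.35). The other TCA genes that met gap and level, CIT1, KGD2, LSC2, MDH1, LPD1 and FUM1, were rising genes.

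Mitochondrial translation contributed 6 genes with a median fold of 1.89. MBA1, which holds the ribosome at the inner membrane, was 2.33-fold higher. RSM24, a protein of the small mitochondrial ribosomal subunit, was 2.14-fold higher, and RRF1, the mitochondrial ribosome recycling factor, was 1.92-fold higher. In these 3 the strains did not overlap. MRPL16 (1.86-fold) and MRPL51 (1.78-fold) of the large subunit and MRP2 (1.70-fold) of the small subunit did overlap, each in 1 of the 6 V5.TM6*P samples. The named mitochondrial ribosome probes numbered 44, with a median log2 difference of 0.77, and 37 were called higher and none lower. Of the 38 named cytosolic ribosome probes, with a median of -0.71, 1 was called higher and 22 lower, and the 1 was RPS27A, a member of the set with a fold of 2.27. RPS27A gave 1.94, 2.08 and 2.40 in V5.TM6*P and 0.28, 0.91 and 1.67 in V5. It has a close paralog, RPS27B, from which a PCR-product probe need not tell it apart.

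Mitochondrial structure, protein folding and upkeep held 8 genes. OM14, an outer membrane protein that takes part in binding ribosomes, gave 1.24, 1.58 and 1.91 in V5.TM6*P and -0.62, -0.27 and 0.04 in V5, a 3.62-fold difference. CLD1, a cardiolipin-specific phospholipase, was 2.38-fold higher, and PPA2, the mitochondrial pyrophosphatase, 2.24-fold. OGG1, a DNA glycosylase that removes oxidized guanine, was 2.16-fold higher. MIC12 and MIC27, subunits of the complex that shapes the cristae, were 2.15-fold and 1.76-fold higher. The folding factors CPR3, a cyclophilin, and HSP10, the cofactor of the matrix chaperonin, had the smaller folds of 1.80 and 1.61. MIC27 and HSP10 overlapped between the strains and the other 6 did not. Of the 9 named probes of mitochondrial import and folding 3 were called higher.

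Carbon use and reserves were represented by BDH1, ALD6, GLC3 and PDH1. BDH1, the butanediol dehydrogenase, gave 2.55, 2.82 and 3.10 in V5.TM6*P and 0.77, 1.25 and 1.54 in V5, without overlap, and was 3.00-fold higher over the mean of its 2 spots. ALD6, the cytosolic acetaldehyde dehydrogenase, was 2.46-fold higher, and 1 of its V5.TM6*P samples, at 13.5 g/L (2.96), lay below the highest V5 sample (3.02). GLC3, the glycogen branching enzyme, was 2.37-fold higher with 1 V5.TM6*P sample (2.69) below the highest of V5 (2.71). PDH1, a protein of propionate metabolism, was 1.92-fold higher without overlap. No gene of glycolysis and ethanol formation was among the 50: of 10 named probes in that list (median log2 difference -0.82) 8 were called lower and none higher. That list held 25 genes, and those without a named probe are not covered by these counts. The study reports HXK1, GLK1 and PYK2 as induced in V5.TM6*P. None of these genes is among the named probes counted here, so the counts do not show that every glycolytic gene was lower or unchanged.

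The 4 genes of nitrogen use and vitamin B6 did not overlap between strains. SNZ2, of the vitamin B6 pathway, gave 3.64, 4.10 and 4.81 in V5.TM6*P and 1.99, 2.60 and 2.88 in V5, a 3.10-fold difference (log2 1.63 ± 0.21, SE). SNZ3 gave 2.06, 2.29 and 2.65 in V5.TM6*P and 0.39, 0.95 and 1.09 in V5, 2.79-fold. The SNZ2 and SNZ3 genes are nearly identical, and the probes may report 1 of them or both. DAL2, the allantoicase of allantoin breakdown, was 3.09-fold higher, and UGA2, which oxidizes succinate semialdehyde from GABA, was 2.47-fold higher. DAL2 and UGA2 were 2 of 9 named probes in a wider list of amino acid and nitrogen use, in which 4 were called higher and 2 lower.

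Membrane, wall and stress genes formed a group of 6 with folds of 1.82 to 2.42. CHO1, the phosphatidylserine synthase, was 2.42-fold higher. YHB1, the flavohemoglobin that detoxifies nitric oxide, gave 5.48, 5.70 and 5.98 in V5.TM6*P and 4.31, 4.60 and 4.75 in V5, a narrow spread (SD 0.18 in each strain) around a 2.24-fold difference. HMX1, the heme oxygenase, was 2.19-fold higher, ERG3, an oxygen-using sterol desaturase, 1.97-fold, and CHS2, the chitin synthase of the septum, 1.93-fold. The cell wall protein PIR3 was 1.82-fold higher and, of the 6, was the gene whose strains overlapped. YHB1 was the 1 member from a list of 6 named probes of oxidative stress defence, 2 of which were called higher and 4 lower. The transcriptional repressor CUP9 was 1.96-fold higher, without overlap.

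The remaining genes were TDA6 and YPR148C, of unknown function, the peroxisomal protein PXP1, 3 dubious open reading frames and the unnamed gene. YKL066W lies over YNK1, YPR099C over MRPL51 and YKL169C over MRPL38, and a double-stranded probe does not tell the strands apart. YKL066W was 2.48-fold higher (log2 1.31), beside a larger log2 difference of 1.47 for YNK1, a rising gene. YPR099C was 2.04-fold higher beside 1.78-fold for MRPL51, itself among the 50. YKL169C was 2.04-fold higher (log2 1.03), beside a log2 difference of 0.76 for MRPL38. The unnamed gene gave 1.51, 1.67 and 2.09 in V5.TM6*P and -1.42, -0.31 and -0.03 in V5, the widest separation of the 50. With normexp and quantile normalization its log2 difference was 0.73, against 2.21 here.

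The strain difference was present over the whole glucose range for the genes as a set. Averaged over pairs of points, its median over the 50 was 1.25 at points 1 and 2, 1.23 at points 3 and 4 and 0.98 at points 5 and 6. All 50 were higher in V5.TM6*P in each pair. A difference of at least 1 was seen in 37, 38 and 24 genes in the same order. The lowest late difference was 0.06, for YPR148C, and the highest was 2.38, for NDI1. These values come from the contrast that chose the genes and carry no test.

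What the rule did not use is the course of each gene within V5.TM6*P. Its slope on residual glucose was fitted together with the V5 slope, and late minus early (points 5 and 6 minus points 1 and 2) with 1 mean per strain and pair of points. No slope was called in V5.TM6*P among the 50 by limma after Benjamini-Hochberg adjustment, as among all 6330 probes (0.0%). At an unadjusted p under 0.05 there were 2 of the 50, which is 4%, against 5.97% of all probes. Late minus early gave no call among the 50 and 1 among all probes (0.0158%), and again 2 of the 50 at an unadjusted p under 0.05, against 6.37% of all probes. The slope count, 2 of the 50 against 378 of all 6330 probes, moved with the processing. It was 7 of the 50, against 429 of all probes, with normexp and quantile normalization. With all 24 arrays fitted singly it was 4 against 405, and without V5.TM6*P replicate 6 it was 4 against 588. Without the 3 arrays of the other code it was 1 against 432.

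The estimated V5.TM6*P changes were small in most of the 50, but the estimates were imprecise. Late minus early had a median of 0.01 over the 50, -0.04 over the rising genes and -0.02 over all probes. It lay within 0.4 of 0, the bound the rule set for V5, in 40 of the 50 (80.0%), against 62.4% of all probes. The level condition of the rule kept dim probes out of the 50, and their median level over the samples was 1.65, against -0.08 for all probes. The 95% interval of a single gene was wide, reaching a median of 0.70 to either side of the estimate. It stayed within 1 of 0 in 32 genes and reached past 1 or -1 in 18, and in those 18 a 2-fold change lay within the interval. On simulated data the late minus early fit recovered 0.7% of 2-fold and 26% of 4-fold changes. Those changes followed glucose in a line, so the simulated step between the pairs was somewhat smaller than the named fold. The changed genes were drawn from all probes, whose median SD over the V5.TM6*P samples was 0.35, against 0.25 for the 50. The rates are therefore not those of the 50. The median level of the 50 was 2.32 and 2.24 at points 1 and 2 of V5.TM6*P and 2.35 and 2.09 at points 5 and 6, against 1.03 and 0.89 and then 1.07 and 1.16 in V5. That of the rising genes was 3.04 and 3.06 and then 3.06 and 3.03 in V5.TM6*P, against 1.30 and 1.32 and then 1.94 and 2.10 in V5. The difference between the slopes of the strains was called for none of the 50 and for none of all probes.

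**Figure D2:**
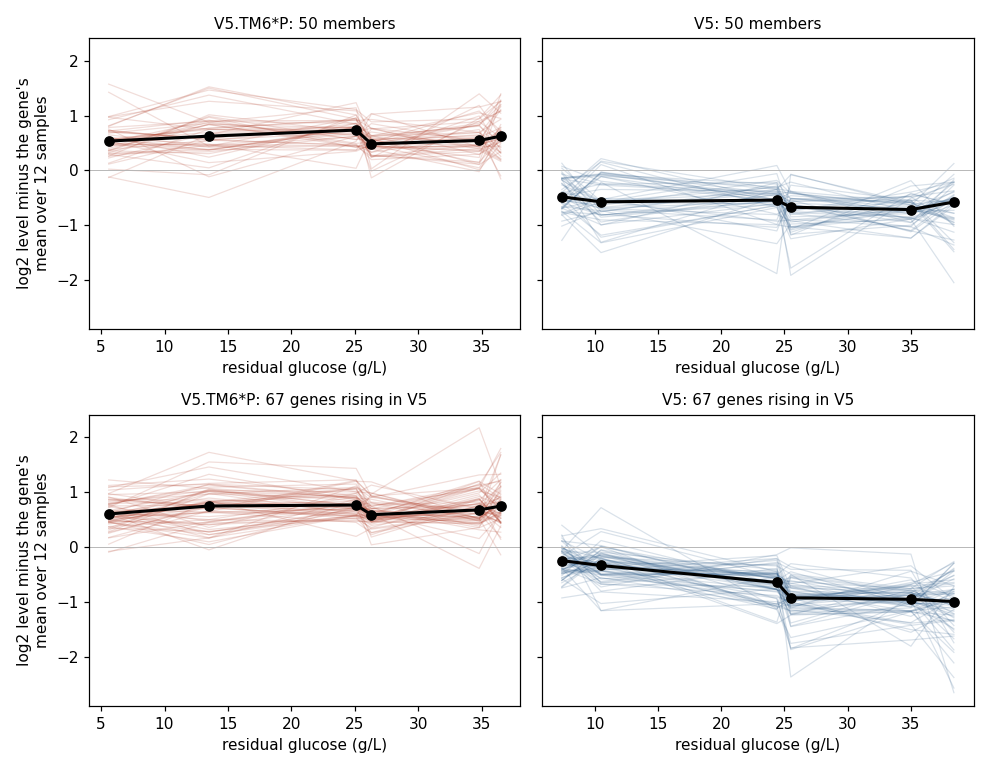
Level of each gene minus its own mean over the 12 samples (y axis, log2) against residual glucose (x axis, g/L), in V5.TM6*P (left) and V5 (right), for the 50 genes (top) and the 67 rising genes (bottom). Thin lines are genes and black lines are medians; the median of the 50 stays above 0 in V5.TM6*P and below 0 in V5 at every point, and that of the rising genes climbs towards low glucose in V5, which is how they were chosen.

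YPR148C had the smallest p for a V5.TM6*P slope. Its levels at points 1 to 6 were 2.61, 2.50, 2.38, 1.88, 0.86 and 1.23 in V5.TM6*P, against 0.46, 0.64, 0.67, 1.00, 1.30 and 0.66 in V5. The strains were far apart at high glucose and overlapped at low glucose. Late minus early was -1.51 (SE 0.30), with an unadjusted p of 0.000876 and an adjusted p of 0.338 by limma. The 2 arrays at 13.5 g/L gave 0.05 and 1.67, and those at 25.1 g/L 1.24 and 2.52. This late minus early passed the threshold when limma's variance was allowed to follow the level and when only probes at or above the array median were tested. Its strain difference lost the call in 8 of the 12 fits that left out 1 sample.

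TDA6 followed the same direction, with 4.58, 4.13, 3.78, 4.31, 3.22 and 3.32 at points 1 to 6 in V5.TM6*P and 2.44, 2.71, 3.22, 2.95, 2.55 and 2.38 in V5. Its late minus early was -1.08 (SE 0.27, unadjusted p 0.00374, adjusted p 0.402 by limma). Without the 3 arrays of the other code it was -0.56. The next smallest slope p-values belonged to ATP1, SNZ2 and HMX1, and none was under 0.05 unadjusted. ATP1 gave 4.96, 5.17, 5.18, 5.40, 5.49 and 5.71 in V5.TM6*P, so its highest sample was at the lowest glucose, with a late minus early of 0.54. From the deposited table the 2 ATP1 spots gave 0.30 and 0.29. On the scanner values HMX1 had a late minus early of -0.64. SNZ2 had 0.72, which was -0.07 without the arrays of the other code and 0.12 from the deposited table.

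Within V5, the rule bounds only late against early, and points 3 and 4 were free of it apart from the level and gap. V5 middle minus ends (points 3 and 4 minus the mean of the other 4) was called for none of the 50 and for 0.0158% of all probes. TDA6 alone had an unadjusted p under 0.05, which is 2% of the 50, against 3.49% of all probes. In V5.TM6*P the same measure reached that p in none of the 50 and in 3.89% of all probes.

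The flat V5 course held less well on the scanner values than on the table that chose the genes. V5 late minus early lay beyond 0.4 in 17 of the 50, higher at low glucose in 15 and lower in 2. Its median was 0.19 over the 50, 0.63 over the rising genes and -0.02 over all probes, and 44.0% of all probes lay beyond 0.4. The V5 slope was negative, a higher signal at lower glucose, in 38 of the 50 (76.0%), against 3064 of all 6330 probes (48.4%). By limma a V5 slope was called in none of the 50 and in 0.0158% of all probes. The V5 rise helped choose the genes, so these values are descriptions. CYT2 gave 1.38, 1.49, 1.71, 1.80, 2.17 and 2.44 at V5 points 1 to 6, each higher than the one before, and its late minus early was 0.87. FMC1 had 0.70, with its lowest V5 sample at point 1. The genes are therefore better described by the rule, a V5 rise of at most 0.4 in the deposited table, than as insensitive to glucose in V5.

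**Figure D3:**
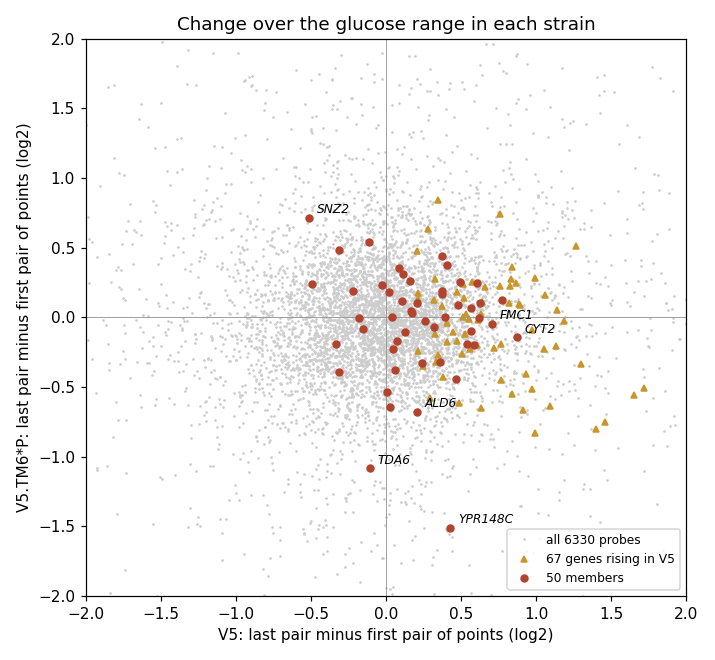
Last pair minus first pair of points in V5.TM6*P (y axis, log2) against the same in V5 (x axis, log2) for the 50 genes (circles), the 67 rising genes (triangles) and all 6330 probes (grey). The 246 probes beyond 2 in either strain lie outside the axes; 40 of the 50 lie within 0.4 of 0 on the y axis, and YPR148C is lowest at -1.51.

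Spots that sample the same gene show how closely the genes sit to the bounds. Of the 50, 33 had 1 spot and 17 had 2. In 5 genes (ATP1, BDH1, MIC12, UGA2 and YPR099C) both spots met the rule, and in 12 only 1 did. The other spot had a gap of at least 1 but a V5 rise over 0.4 in 5 (CHS2, MBA1, OM14, YPR148C and the unnamed gene). In TDA6 it had such a gap but a V5 fall beyond 0.4. It had a gap under 1 in 6 (COR1, MRP2, MRPL16, MRPL51, PDH1 and CUP9). Among these 6, the other spot of MRPL16 also rose in V5 by 0.60, and that of CUP9 also changed by -0.41. The V5 rise differed between spots of a gene by a median of 0.22 and by up to 0.61, and the gap by a median of 0.13 and up to 0.28.

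At the edges of the rule, the 3 genes just inside the gap bound were CPR3 and MRPL51 at 1.01 and PXP1 at 1.02, and those just outside were PET9 and TCM62 at 0.99 and CHA1 at 0.98. Just inside the bound on the V5 rise were BDH1 and MRPL16 at 0.399 and OM14 at 0.38, and just outside were ATP15 at 0.403, an unnamed gene at -0.41 and AIM24 at 0.42. Just inside the level bound were OGG1 at 0.12, COX4 at 0.14 and MDH2 at 0.18. Just outside it were YOR135C at -0.00, SDH5, which encodes a factor that attaches FAD to complex II, at -0.45 and RCH1 at -0.57. Of 144 spots that met the gap and level conditions, 80 had a V5 rise over 0.4 and 9 a fall beyond it.

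**Figure D4:**
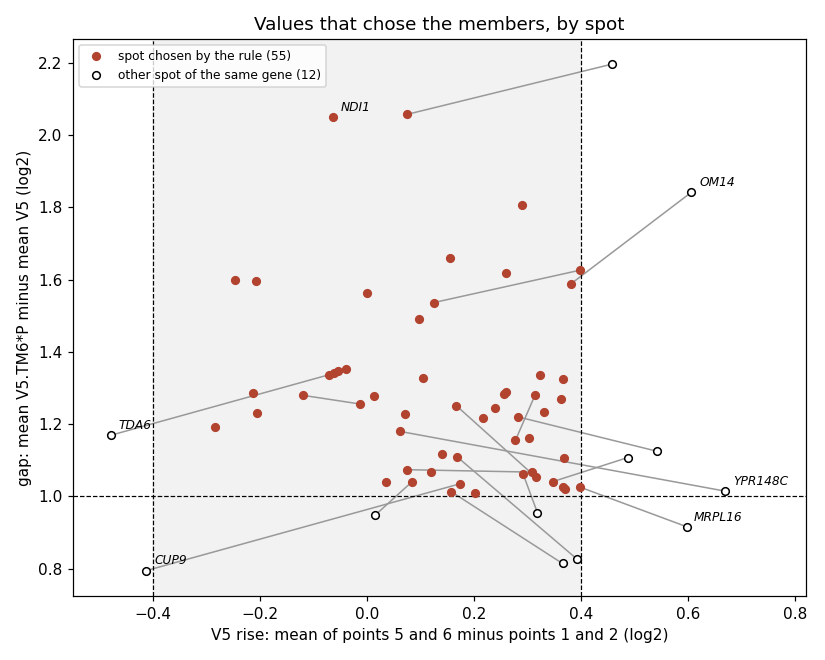
Gap between the strains (y axis, log2, V5.TM6*P minus V5) against the V5 rise (x axis, log2) for the 55 chosen spots (filled) and the 12 other spots of the same genes (open), joined by lines where a gene has 2 spots. Dashed lines are the bounds of the rule, at a gap of 1 and V5 rises of -0.4 and 0.4; the 12 open points lie outside the bounds, 5 of them with a gap over 1 to the right.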

How the data were processed

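Amplified RNA labelled with radioactive dCTP was hybridized to filter arrays of PCR products, with 2 arrays for each of 12 RNA samples (6 per strain). The deposited scanner files hold, per the file headers, a median pixel intensity for every spot and another for its local background, both measured by the authors in Imagene. The deposited table of the series holds intensity values after background subtraction and a scaling by the authors whose factor is not stated. It was used to apply the rule that chose the genes, and as an alternative elsewhere. No value column of another series was used.

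For all other values, spot minus background was floored at 0.1, put on a log2 scale, averaged over the spots of a probe, centred on each array's median and averaged over the 2 arrays. Of scanner values 1.49% lay under the floor, and of table values 5.04%. Fits used limma 3.58.1 in R 4.3.3 with Benjamini-Hochberg adjustment over 6330 probes and a threshold of 0.05: the strain difference, a slope on glucose per strain, and 1 mean per strain and pair of points. All fits pooled the spread of both strains, and intervals are at 95%. On simulated data with 200 changed genes of 6330, 60.3% of 2-fold and 87.5% of 4-fold strain differences were recovered with 4.52% false calls. For the V5.TM6*P slope 8.9% and 55.9% were recovered with 5.12% false calls, and for late minus early 0.7% and 26% with 3.61%.

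Probes in the files carry numbers only. The study's supplementary lists give a strain factor and a base value per gene, and were used for names alone. A probe was named where both values, recomputed from the deposited table, matched those of 1 gene, to all listed digits for 5 of the genes described here and to the rounding of the list and the print order for 44. Current symbols come from RefSeq. Oligonucleotides were taken from the study's supplementary list, and a search of promoter sequences for motifs was not run. Named genes are the members in the pathway lists, the 10 with the largest gap, the 5 with the smallest p for the V5.TM6*P slope and those at the bounds of the rule; the others, among them genes at the level bound and genes of no list, were named after their values were seen. The genes and lists were chosen with earlier results of these data known. V5 middle minus ends was added after seeing the data, as were the counts under each alternative of genes called or higher between the strains, of late minus early calls among the 50 and of slopes at an unadjusted p; the count of called V5.TM6*P slopes among the 50 was not. Alternatives covered the source of values, floor, background correction, normalization, low-value filter, variance model, repeat arrays, array code in the file headers, replicate block, glucose scale and each sample left out.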

Additional observations from a re-analysis of the deposited data

Results flagged for a closer look

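In 6 of the 100 combinations of gene and strain, 1 of the 6 samples stood apart from the other 5 by more than the 95% critical value of Dixon's test. About 1 in 20 is flagged by chance alone. In V5.TM6*P, ALD6 at 13.5 g/L was low at 2.96 (the others 3.70 to 4.12), COR1 at 36.5 g/L was low at 2.79 (the others 3.37 to 3.69) and ERG3 at 26.3 g/L was high at 4.37 (the others 3.98 to 4.13). Without that sample their strain differences were 1.45, 1.03 and 0.92 on the log2 scale, against 1.30, 0.91 and 0.97 with it. In V5, RCF2 at 35.0 g/L was low at 0.56 (the others 0.99 to 1.15), ATP19 at 25.5 g/L was low at -0.21 (the others 0.99 to 1.67) and FMC1 at 38.4 g/L was low at -0.82 (the others 0.08 to 0.45). Their strain differences were 1.24, 1.02 and 0.97 without that sample and 1.33, 1.28 and 1.15 with it. The 6 flags fell on 6 different samples, and their cause was not tested.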

How the results depend on the processing

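The membership depended on the bounds and on the values used: a gap of at least 0.8 gave 99 genes and of at least 1.2 gave 32, and leaving out 1 sample in turn gave 42 to 56. The rule on scanner values gave 63 genes, of which 27 were among the 50 (54% of the 50 and 42.9% of the 63), and averaging spots first gave 42. Over 21 alternatives of the rule 11 genes met each, and 16 met it whichever sample was left out. The count of all probes called between the strains, 772, was 576 to 727 with 1 sample left out, 598 without the 3 arrays of the other code and 471 without points 5 and 6 of both strains. It was 798 to 959 without a floor, with a floor of 1, with quantile normalization, from the table and with a variance trend, 1017 with bright probes alone, 1088 with all 24 arrays and 1091 with normexp and quantile normalization. Samples of the strains could be matched only by point number, and so by similar residual glucose. Same-numbered samples correlated at 0.020 to 0.053 after removal of the strain means. For V5.TM6*P points 1, 2, 3, 4 and 6 the best-correlated V5 sample had the same number, and for point 5 it was point 3. With the point number as replicate block 506 probes were called. Of the 50, 49 or 50 were called with 1 sample left out, 48 with the block or without the other code and 46 without points 5 and 6. As this contrast chose them, nothing about stability is read from these counts. YPR148C lost the strain call in 8 of the 12 fits with 1 sample left out (log2 0.98 to 1.13), without the other code (log2 0.99, adjusted p 0.066 by limma) and with the block (log2 1.12, adjusted p 0.095). MRP2 lost it without the other code (log2 0.62, adjusted p 0.124) and HSP10 with the block (log2 0.69, adjusted p 0.060). Without points 5 and 6, MRPL51 (log2 0.85), MRP2 (0.76), CUP9 (0.82) and IDH1 (1.67) lost it.

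No member had a V5.TM6*P slope called under any alternative. Over all probes the count was 0, was 0 to 0 with 1 sample left out, and was 3 with all 24 arrays, 2 with normexp and quantile normalization, and 1 each with a variance trend, log2 glucose and bright probes alone. For late minus early 1 probe was called, against 0 from the table, without a floor or with a floor of 1, 3 with normexp and quantile normalization, 4 with bright probes alone, 5 with a variance trend, 10 with all 24 arrays and 35 without the other code. With 1 sample left out it was 0 to 32, and the 32 came without V5.TM6*P replicate 6. YPR148C was the 1 member called, with bright probes alone and with a variance trend. The cause of these differences was not tested.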
